A study of Mus musculus with 12 samples.

Results

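Corneas of mice with dry eye disease (DED) that had received exosome eye drops were compared with corneas of untreated mice, to list the genes that differed from untreated cornea after treatment. The comparison used 5 of the 12 RNA-seq samples, 3 untreated controls and 2 eye drop samples, and tested 14934 of 28529 gene lines, those with a count of at least 10 in at least 2 of the 5 libraries. All groups carried the genotype label WT and 1 batch label. The controls had no treatment, the DED mice were a disease model, and the eye drop mice were the DED model given exosomes, small membrane vesicles released by cells, as a drop on the eye. DED mice given exosomes intravenously entered only the scaling and the estimate of the spread in fits over 11 libraries. The labels give no sex, age, collection time, exosome source or way of inducing DED, and list no DED mice given a drop without exosomes. Differences between eye drop and control corneas therefore hold the disease, the exosomes, the drop and the handling together, which cannot be told apart. For eye drop sample 3 the deposited values were only the log2 mean of eye drop 1 and 2, so that sample was left out.

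The cornea is a clear, avascular tissue with a stratified epithelium over a collagenous stroma and a single inner layer of endothelial cells. Its epithelium is renewed from basal cells, which are fixed to the basement membrane by hemidesmosomes, and NOTCH signalling between neighbouring cells guides their differentiation. In dry eye, a failing tear film exposes this surface to osmotic and mechanical stress, and epithelial cytokines, antimicrobial proteins and squamous proteins are among the genes known to respond.

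The 5 libraries held 10893978 to 13687074 counts. Corneal epithelial markers summed to 753900, 1093000 and 991000 normalized counts in controls 1 to 3 and to 1013000 and 1023000 in eye drop 1 and 2, so the defining markers of the labelled tissue were present. Krt12, the keratin typical of corneal epithelium, reached 304201, 444320 and 415748 normalized counts in the controls and 435388 and 436513 in the eye drop libraries. Its log2 fold change was 0.19 (SE 0.18) and was not called, and an antisense gene, A830036E02Rik, overlaps it. Pax6, the master transcription factor of the eye, was not called either, at -0.15 (SE 0.14). In whole tissue, fewer cells of a type and less RNA per cell cannot be told apart. The labels do not say that samples of a group came from separate animals, so p-values measure only the spread between these libraries.

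At an adjusted p of 0.05, 182 of the 14934 genes differed from untreated cornea (1.22%), 79 higher (0.529%) and 103 lower (0.69%) in the eye drop corneas. Adjusted p-values are from limma with Benjamini-Hochberg adjustment over all genes tested, and fold changes are on the scale of log2(normalized count + 1). Of the 182 genes, 95 differed by at least 2-fold, 42 higher and 53 lower. The smallest adjusted p, 0.0197, was shared by 37 genes. An unadjusted p under 0.05 was reached by 3069 genes. The count of 182 rested on single libraries and on how the spread was estimated. It was 421, 132 and 1 without control 1, 2 and 3, and 0 and 42 without eye drop 1 and 2 (1393 genes at an unadjusted p under 0.05 without eye drop 1). With plain limma, without a variance trend or robust estimation, it was 0 (2619 genes at an unadjusted p under 0.05), and it was 1 when the spread was estimated over all 11 libraries. Under all 21 alternatives the called genes that had a value kept their direction. The share of higher genes was 43.4% of the calls here, 13.2% (55 of 417) with scaling to library totals, which moved the median of all genes by -0.16, and 76.3% (58 of 76) with values as deposited.

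**Figure D1:**
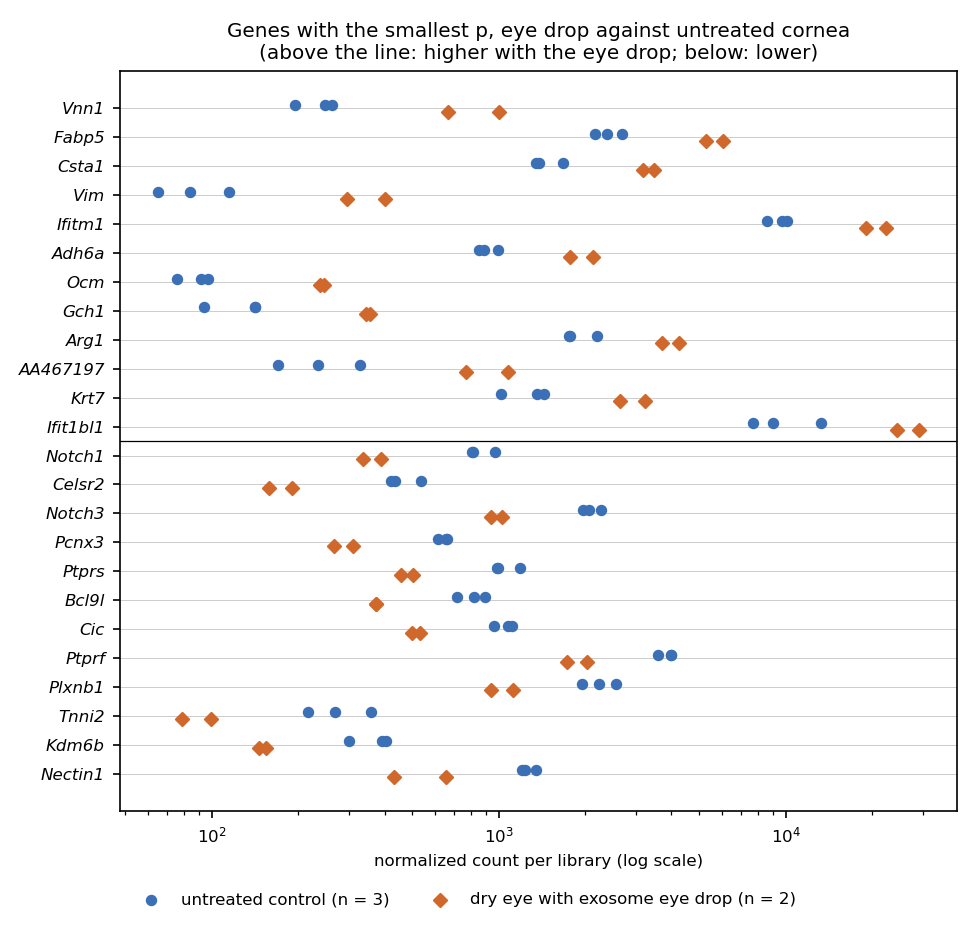
Normalized counts per library on a log axis for the 12 higher and 12 lower genes of smallest p that passed the adjusted threshold and differed at least 2-fold. Circles are the 3 control libraries and diamonds the 2 eye drop libraries. Vnn1, for example, runs from 195.1 to 262.5 in controls and has 667.3 and 1004 in eye drop corneas. The groups do not overlap in any of the 182 called genes. Since the genes shown were picked from those by p, their lack of overlap is no separate support. Of all genes tested, 20.2% did not overlap on the higher side and 21.0% on the lower side.

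Of the 21 tested inflammatory cytokine and chemokine genes, 4 rose (Il1f8, Il1f9, Il1r2 and Ccl6) and 0 fell in eye drop against untreated corneas. The list's median log2 fold change was 0.64 against 0.00 over all genes tested, and the groups did not overlap in 13 higher and 3 lower genes (61.9% and 14.3%, against 20.2% and 21.0% of all genes tested). Il1f8, also called Il36b, encodes an epithelial cytokine of the interleukin-1 family. It had 47.7, 54.2 and 75.3 normalized counts in controls 1 to 3 and 207.6 and 167.3 in eye drop 1 and 2. Both eye drop libraries lay above all controls, and Il1f8 rose by 1.67 on the log2 scale (SE 0.26, adjusted p = 0.0215). Its relative Il1f9 (Il36g) had 243.7, 270.9 and 470.1 in the controls and 959.3 and 785.2 with the eye drop, a rise of 1.46 (SE 0.26, adjusted p = 0.0416). Without any 1 of the 5 libraries Il1f9 missed the threshold, with a lowest adjusted p of 0.0595. Il1f6 (Il36a), a further relative, had 17.9, 12.2 and 31.2 against 86.2 and 49.4 and did not pass (log2 fold change 1.73, SE 0.44, adjusted p = 0.0774). Il1r2, the decoy receptor that binds interleukin-1 without signalling, had 63.1, 84.0 and 120.5 in the controls and 281.4 and 203.4 with the eye drop, and rose by 1.46 (SE 0.28). Ccl6, a chemokine of myeloid cells, rose by 2.30 (SE 0.41) from 9.4, 11.1 and 8.6 to 59.2 and 44.7.

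Of the genes called higher, AA467197 (Nmes1 or C15orf48 in other naming, a small mitochondrial protein linked to inflammation) had 169.6, 235.5 and 329.1 normalized counts in the controls and 1074.5 and 767.1 in the eye drop corneas, a rise of 1.94 (SE 0.27). It was the 1 gene called in the fit over 11 libraries. Its promoter and that of Il1f8 are shown because both genes are high and both windows hold the AP-1 element, which dimers of FOS and JUN proteins bind. The promoter of Ifit1bl1, a member of the interferon-induced Ifit family described with the interferon genes, is shown for its interferon element. RefSeq lists 2 starts of Ifit1bl1, with a match at -104 in one window and -23 in the other, and the first is printed. Capitals mark the match, AP-1 as TGANTCA and the interferon element (ISRE) as GAAA, any 2 bases and GAAA, each searched on both strands. The windows are from RefSeq on build GRCm38.p6, from 250 bases before to 50 after the annotated start. They lie at chr2:24152922-24153221 (plus strand) for Il1f8, chr2:122637637-122637936 (plus strand) for AA467197, and chr19:34601919-34602218 (minus strand) for Ifit1bl1.
Il1f8: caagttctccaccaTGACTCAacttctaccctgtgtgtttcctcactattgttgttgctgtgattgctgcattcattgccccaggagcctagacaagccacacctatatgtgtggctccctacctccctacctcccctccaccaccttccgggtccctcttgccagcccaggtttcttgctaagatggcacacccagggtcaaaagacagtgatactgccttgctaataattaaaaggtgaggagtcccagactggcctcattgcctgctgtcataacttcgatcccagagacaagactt
AA467197: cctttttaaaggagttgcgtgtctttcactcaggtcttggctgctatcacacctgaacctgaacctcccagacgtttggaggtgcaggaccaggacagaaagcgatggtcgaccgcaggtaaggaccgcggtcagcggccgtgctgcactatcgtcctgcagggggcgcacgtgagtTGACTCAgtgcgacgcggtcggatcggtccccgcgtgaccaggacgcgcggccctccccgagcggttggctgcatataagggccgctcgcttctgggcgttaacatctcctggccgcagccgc
Ifit1bl1: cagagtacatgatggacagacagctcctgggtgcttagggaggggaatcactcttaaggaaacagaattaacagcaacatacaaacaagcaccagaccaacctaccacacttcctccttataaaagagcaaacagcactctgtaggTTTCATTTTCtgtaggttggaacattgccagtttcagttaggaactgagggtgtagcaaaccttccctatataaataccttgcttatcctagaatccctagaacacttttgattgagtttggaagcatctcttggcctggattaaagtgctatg
The matches begin at -236, -73 and -104 from the start. Of the genes tested, 10545 had a promoter in the table, and 6.43% of these held the AP-1 element and 3.72% the ISRE. Among those called higher, 7 of 55 (12.7%) held the AP-1 element and 3 of 55 (5.45%) the ISRE. Among those called lower, 6 of 80 (7.5%) and 2 of 80 (2.5%) did. The NF-kB (GGG, any 2 bases and TTTCC), RBPJ (GTGGGAA), D-box (TTATGTAA) and sterol (TCACNCCAC) elements were each in 0 to 3 promoters of either set. A match is a description of these letters alone.

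Antimicrobial proteins and alarmins gave 3 higher and 0 lower genes of 16 tested, with a median of 0.83. Of all genes tested, 0.529% were called higher and 0.69% lower. The list's groups did not overlap in 10 higher and 0 lower genes (62.5% and 0.0%, against 20.2% and 21.0% of all genes tested). Plac8, which is expressed in epithelia and myeloid cells, had 2369.6, 3629.4 and 3496.9 normalized counts in the controls and 7636.1 and 6992.7 with the eye drop, a rise of 1.23 (SE 0.19). Defb1, the constitutive epithelial defensin, rose by 0.98 (SE 0.16) from 1581.4, 1261.4 and 1596.2 to 3059.6 and 2769.1. Pglyrp4, a peptidoglycan recognition protein that kills bacteria, rose by 0.86 (SE 0.18). Ltf, which encodes the iron-binding protein lactoferrin, had 201.1, 285.2 and 341.0 against 1147.2 and 584.6 and missed the threshold (1.60, SE 0.32, adjusted p = 0.0585). The alarmin S100a9 was low in all 5 libraries, at 14.5, 35.4 and 29.0 against 46.7 and 53.2. The neutrophil marker list, to which Ltf belongs, summed to 219.8, 339.4 and 376.5 in the controls and to 1203 and 650.2 with the eye drop. Without Ltf it summed to 18.75, 54.17 and 35.5 against 56.06 and 65.59, so both eye drop sums lay above every control at low counts, and the defining marker Ly6g was at 0. The 17 measured markers of macrophages and dendritic cells summed to 1163 to 1321 in the controls and to 2111 and 1662 with the eye drop. Most of that sum was Itgam, an integrin of myeloid cells that overlaps Gm49368, with 892.1, 604.7 and 856.2 against 1360.1 and 1170.2 (not called, adjusted p = 0.0827). Csf1r, the macrophage growth factor receptor, which overlaps Hmgxb3, lay lower, at 89.5, 115.0 and 110.8 against 68.5 and 67.5 (not called), the complement gene C1qa overlapped between groups, and the median over 9 tested markers was 0.17. Siglecg, an inhibitory receptor of leukocytes, rose by 2.53 (SE 0.45) from 11.9, 11.1 and 7.5 to 89.3 and 43.7. The part of leukocyte RNA in the rises of Ccl6, Siglecg and Plac8 was not tested.

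Interferon-stimulated genes were on the higher side as a list, but its level turned on control 1. Of 51 tested members, 2 rose and 0 fell, and the groups did not overlap in 21 higher and 1 lower (41.2% and 1.96%, against 20.2% and 21.0% of all genes tested). The median log2 fold change was 0.60, and 0.21 without control 1. Isg15, a ubiquitin-like interferon-induced protein, had 282.0, 1747.8 and 1665.1 in the controls and 1412.0 and 1706.3 with the eye drop, so control 1 alone stood apart. Irf7, a transcription factor of the interferon response, had 512.1, 1668.2 and 1536.0 against 1865.7 and 1676.9, and Ifit3, an antiviral effector, had 300.8, 1582.0 and 1442.4 against 1375.6 and 1622.7. None of these 3 was called. Ifitm1, which blocks entry of enveloped viruses and has close paralogs that can share reads, had 8610.2, 10113.3 and 9694.8 in the controls and 19107.4 and 22339.4 with the eye drop. Control 1 did not stand apart there, and Ifitm1 rose by 1.13 (SE 0.15, adjusted p = 0.0197). Gbp4, a guanylate-binding GTPase whose locus overlaps Gbp8 and Gbp9, rose by 1.31 (SE 0.27) from 52.8, 69.6 and 86.1 to 201.4 and 145.4. Irf1 and Parp9 did not pass, at 0.64 (adjusted p = 0.0691) and 0.58 (adjusted p = 0.0711). Outside the list, Ifit1bl1, whose counts may be shared with its paralogs, had 7680.6, 9032.1 and 13324 against 29127.2 and 24476.4, a rise of 1.46 (SE 0.22).

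Enzymes of tetrahydrobiopterin and arginine metabolism gave 3 higher genes and 1 lower of 14 tested, with a median of 0.35. Over all genes tested, 0.529% were called higher and 0.69% lower. The list's groups did not overlap in 7 higher genes and 1 lower, against 20.2% and 21.0% of all genes tested. Gch1, the rate-limiting enzyme of tetrahydrobiopterin synthesis, had 93.7, 141.5 and 142.0 normalized counts in the controls and 355.1 and 345.1 with the eye drop, a rise of 1.495 (SE 0.22). Arg1, the arginase that splits arginine into ornithine and urea, had 1756.1, 1766.6 and 2192.2 against 4245.3 and 3704.5, a rise of 1.06 (SE 0.16). Sat1, which acetylates polyamines for breakdown, rose by 0.76 (SE 0.14), while Slc7a1, an importer of arginine, fell by 1.22 (SE 0.20) from 1382.9, 940.8 and 905.7 to 402.8 and 510.5. Slc6a14, an importer of neutral and basic amino acids, rose by 1.09 (SE 0.21).

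Further genes rose and are described singly. Vnn1, a pantetheinase that yields cysteamine, rose by 1.80 (SE 0.21) from 195.1, 248.7 and 262.5 to 1004 and 667.3. Fabp5, the epidermal fatty acid-binding protein, had 2160, 2389 and 2693.4 against 5265.8 and 6041.1, a rise of 1.23 (SE 0.15). It was the 1 gene called of 27 tested in the fatty acid and lipid list. That list's groups did not overlap in 1 higher and 9 lower genes (3.7% and 33.3%, against 20.2% and 21.0% of all genes tested). Csta1, a cystatin-type protease inhibitor of a multigene family, rose by 1.18 (SE 0.15) from 1346.3, 1380.8 and 1675.8 to 3473.9 and 3176.0. Krt7, a keratin of simple and conjunctival epithelia that overlaps the antisense gene Gm671, had 1019.1, 1441.6 and 1362.8 against 3234.1 and 2650.3, a rise of 1.22 (SE 0.18). It is also 1 of 9 conjunctival and goblet cell markers, whose sum was 48110, 60560 and 63000 in the controls and 69190 and 74300 with the eye drop. Of 18 squamous cornification genes 1 rose and 0 fell, and the list's median was 0.38. Its groups did not overlap in 11 higher and 1 lower genes (61.1% and 5.56%, against 20.2% and 21.0% of all genes tested). The called gene was Serpinb3a, a protease inhibitor of squamous epithelia, which rose by 0.89 (SE 0.15). Klk8, a kallikrein protease, just missed the threshold (1.07, adjusted p = 0.0501). Sprr1a, a precursor of the cornified envelope, had 98.8, 253.2 and 262.5 against 445.4 and 386.9 and was not called (1.14, SE 0.44, adjusted p = 0.219). Adh6a, an alcohol dehydrogenase, rose by 1.09 (SE 0.15). Of 18 retinoid and steroid genes, 0 rose and 1 fell, against 0.529% and 0.69% of all genes tested. The groups of that list did not overlap in 5 higher and 3 lower genes (27.8% and 16.7%, against 20.2% and 21.0%). The called gene, Cyp26b1, which degrades retinoic acid, fell by 1.09 (SE 0.18) from 1764.6, 1604.1 and 1160.6 to 730.9 and 668.3. Ly6a, a membrane-anchored surface protein known as Sca-1 with close paralogs, had 2010.9, 3165.1 and 3247.4 against 6887.5 and 6796.9, a rise of 1.32 (SE 0.20). S100a10, the annexin-binding S100 protein, rose by 0.94 (SE 0.16). Ocm, the calcium-binding protein oncomodulin, rose by 1.45 (SE 0.20) from 75.8, 97.3 and 91.4 to 238.8 and 245.3.

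Vim, the intermediate filament protein of mesenchymal and endothelial cells, had 64.8, 115.0 and 83.9 normalized counts in the controls and 400.8 and 295.6 with the eye drop, a rise of 2.00 (SE 0.26). The 13 measured keratocyte markers other than Aldh3a1, which corneal epithelium also expresses, summed to 7519, 11170 and 9625 in the controls and to 17250 and 11910 with the eye drop. The corneal endothelium list without Prdx6 summed to 332.3, 1025 and 714.2 against 6525 and 885, so eye drop 1 stood far above the rest and eye drop 2 within the controls. The collagen and stromal matrix list had a median of 0.74, with 0.08 without eye drop 1 and 1.67 without eye drop 2. Its 0 higher and 2 lower calls of 31 were the epithelial collagens Col7a1 and Col17a1, against 0.529% and 0.69% of all genes tested. The groups of the list did not overlap in 7 higher and 4 lower genes (22.6% and 12.9%, against 20.2% and 21.0%). Col3a1, a fibrillar collagen, had 52.0, 76.3 and 72.1 against 229.4 and 107.4 and was not called. The part of stromal and endothelial cells in the value of Vim was not tested. The 24 measured lens markers summed to 170.4, 1292 and 4024 in the controls and 3061 and 40320 with the eye drop, so eye drop 2 stood apart, and 0 of the 18 tested were called. Clic5, a chloride channel-related protein, and Smpdl3b, a membrane lipid phosphodiesterase, also rose, by 1.59 (SE 0.28) and 1.60 (SE 0.30), and in both eye drop 1 was the higher library, at 1958.1 against 958.2 and 322.9 against 154.9.

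**Figure D2:**
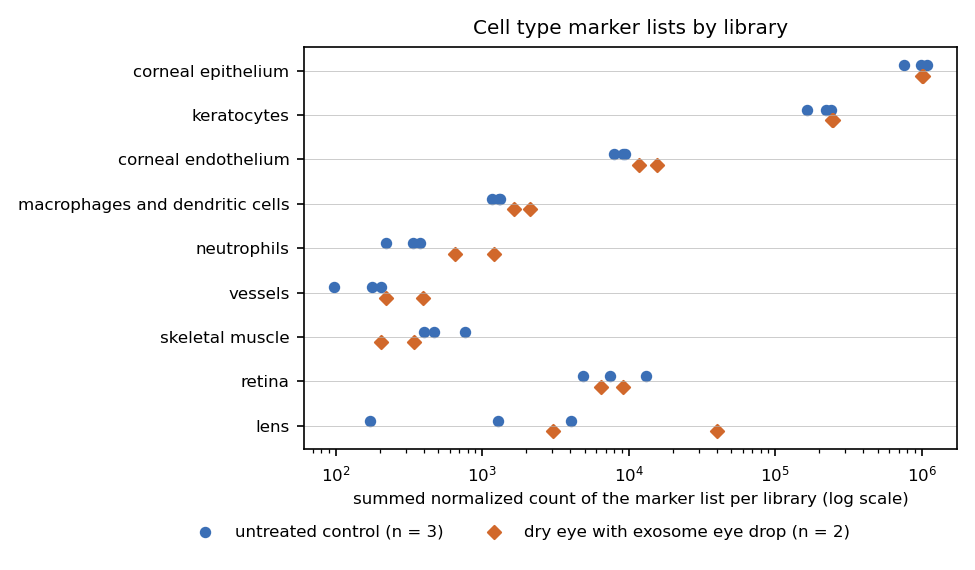
Summed normalized counts of 9 cell type marker lists per library, on a log axis, with circles for the 3 controls and diamonds for the 2 eye drop libraries. The full lists are plotted. Most of the keratocyte sum is Aldh3a1, most of the endothelium sum Prdx6 and most of the neutrophil sum Ltf. The text gives the sums without these genes. Epithelial markers run from 753900 in control 1 to 1093000 in control 2, and lens markers from 170.4 in control 1 to 40320 in eye drop 2.

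Among the lower genes, NOTCH receptors and ligands stood together. In the WNT and NOTCH list 0 genes rose and 4 fell of 29 tested, with a median log2 fold change of -0.54, and the groups did not overlap in 21 lower genes and 1 higher (72.4% and 3.45%, against 21.0% and 20.2% of all genes tested). The median stayed between -0.63 and -0.46 when any 1 library was left out. Notch1, the main NOTCH receptor of stratified epithelia, had 967.1, 810.3 and 811.0 normalized counts in the controls and 336.4 and 389.8 with the eye drop. Both eye drop libraries lay below every control, and Notch1 fell by 1.25 (SE 0.15, adjusted p = 0.0197). Notch3, a receptor best known in vascular mural cells, fell by 1.10 (SE 0.14) from 2071.4, 2280.7 and 1971.7 to 940.6 and 1026.7. The ligand Jag2 fell by 1.24 (SE 0.19) from 1432.3, 1023.7 and 1161.7 to 437.1 and 586.5, and the ligand Jag1 by 1.11 (SE 0.23, adjusted p = 0.0499) from 1380.3, 1030.3 and 812.1 to 414.2 and 572.3. On the later build, genes on the other strand overlap Notch1 (0610009E02Rik and Gm13568) and Notch3 (Gm17276), and whether counting used strand is not given in the sources used here. Bcl9l, a coactivator of beta-catenin that overlaps Cxcr5, fell by 1.11 (SE 0.15) from 823.1, 896.6 and 715.3 to 374.8 and 372.6.

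Of 39 tight junction, desmosome and adhesion genes, 0 rose and 3 fell, against 0.529% and 0.69% of all genes tested. The 3 were Itgb4, Lamb3 and Col17a1, all parts of the hemidesmosome or its laminin ligand. The list's median was -0.08. Its groups did not overlap in 9 higher and 17 lower genes (23.1% and 43.6%, against 20.2% and 21.0% of all genes tested). Col17a1, the transmembrane collagen of hemidesmosomes, had 16002.7, 11321.6 and 13568.1 normalized counts in the controls and 5915.8 and 7644.8 with the eye drop, and its log2 fold change was -1.005 (SE 0.18). Itgb4, the integrin chain that binds laminin, fell by 1.07 (SE 0.17) from 2459.1, 1881.6 and 2171.7 to 916.7 and 1148.3. Lamb3, a chain of epithelial laminin, fell by 0.97 (SE 0.19), and Col7a1, the collagen of anchoring fibrils, fell by 1.29 (SE 0.24) from 662.9, 341.6 and 491.6 to 196.2 and 196.8. Plec encodes the linker plectin and overlaps Parp10 on the same strand. It had 4953.9, 5909 and 4579 against 2224.9 and 2607.5, a fall of 1.09 (SE 0.16). Its call ended once the trend with transcript length was removed (log2 fold change -0.57, adjusted p = 0.238). Nectin1, a cell adhesion molecule of adherens junctions, fell by 1.25 (SE 0.18) from 1204.8, 1349.8 and 1237.0 to 432.9 and 654.0. Cdh1, the epithelial cadherin, had 3790.9, 3875.9 and 3590.5 against 1836.6 and 2589.5 and did not pass (-0.78, adjusted p = 0.0532).

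Of 26 neurotrophic and nerve guidance genes, 0 rose and 2 fell, Ngfr and Sema3f, with a list median of -0.09. Over all genes tested, 0.529% were called higher and 0.69% lower. The list's groups did not overlap in 3 higher and 9 lower genes, against 20.2% and 21.0% of all genes tested. Ngfr, the low-affinity receptor of neurotrophins, had 469.5, 416.8 and 424.9 normalized counts in the controls and 198.3 and 222.4 with the eye drop, a fall of 1.05 (SE 0.16). Sema3f, a secreted semaphorin, fell by 0.74 (SE 0.14). Slit2, a secreted guidance protein of the same list, had at most 32.3 in the controls against 257.5 and 63.7 and was not called (2.17, SE 0.51, adjusted p = 0.0717). Outside the list, the following genes fell. The semaphorin receptors Plxnb1 and Plxna3 fell by 1.12 (SE 0.16) and 1.35 (SE 0.22). The atypical cadherins Celsr1, Celsr2 and Fat2 fell by 1.37, 1.41 and 1.42 (SE 0.21, 0.18 and 0.21), and the receptor tyrosine phosphatases Ptprs and Ptprf by 1.13 and 1.03 (SE 0.15 and 0.14). Piezo2, a mechanically gated channel of touch neurons, had 677.4, 473.2 and 459.3 against 206.6 and 219.6, a fall of 1.31 (SE 0.19). Of chromatin and transcription regulators, Kdm6b, a histone demethylase that overlaps Kdm6bos, fell by 1.26 (SE 0.18) and Cic, a transcriptional repressor, by 1.03 (SE 0.14). Pcnx3 and Mroh6, whose roles are not described here, fell by 1.16 (SE 0.15) and 1.32 (SE 0.23). Mthfd2, an enzyme of mitochondrial folate metabolism, fell by 1.64 (SE 0.27) from 182.3, 326.1 and 182.9 to 67.5 and 73.2. Tnni2, a troponin of fast skeletal muscle, fell by 1.62 (SE 0.24) from 358.7, 268.6 and 217.3 to 78.9 and 99.8. The 20 measured muscle markers summed to 466.9, 402.4 and 759.4 in the controls and 203.5 and 340.3 with the eye drop, and the part of muscle tissue in the value of Tnni2 was not tested.

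**Figure D3:**
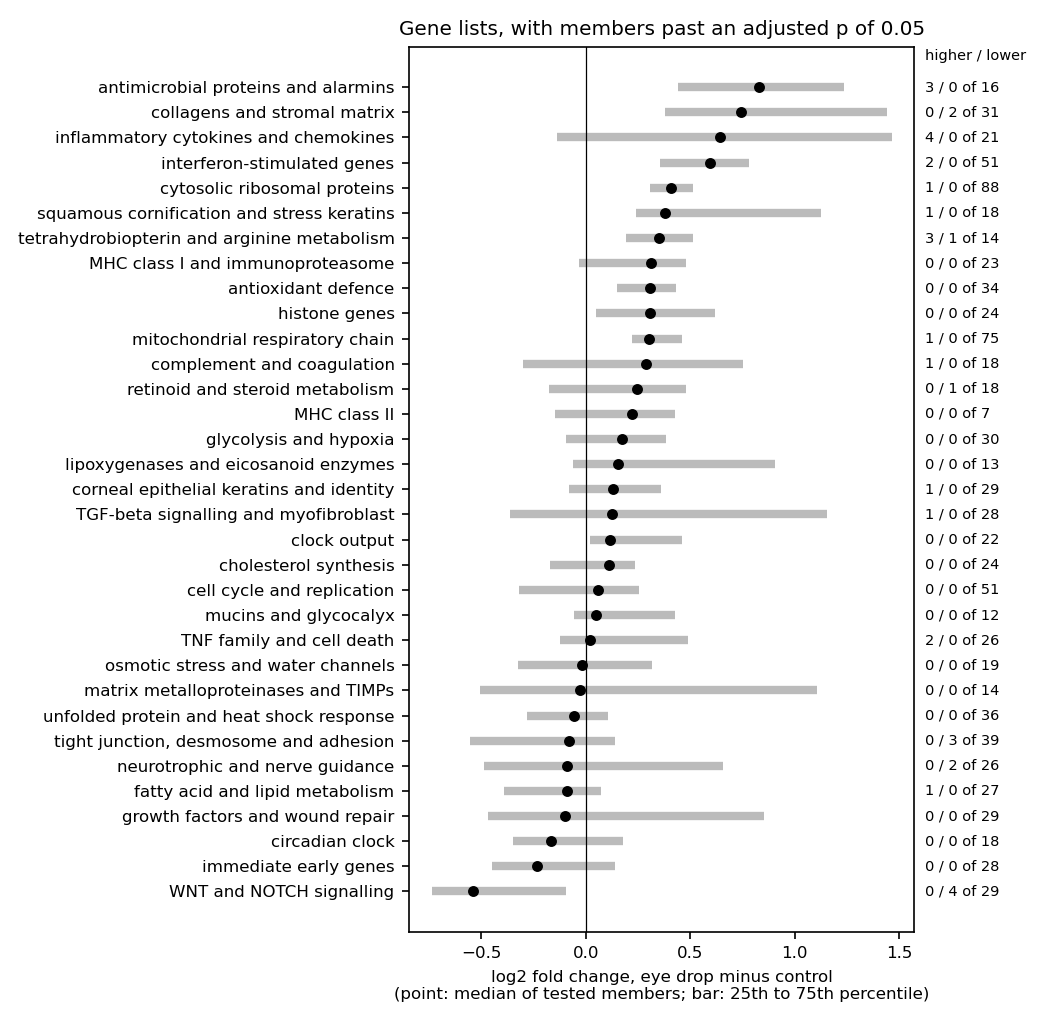
Median log2 fold change (point) and 25th to 75th percentile (bar) of the tested members of 33 function lists, eye drop minus control, with the number called higher and lower at the right. Antimicrobial proteins have the highest median, 0.83, and WNT and NOTCH signalling the lowest, -0.54; with the length trend removed these are 0.54, below collagens at 1.018 and interferon genes at 0.59, and -0.45.

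The fold change followed transcript length across genes. Over 14844 genes with a length, taken from the GENCODE vM21 annotation, the rank correlation of log2 fold change with length was -0.30, across genes that are not independent replicates. Over 5 equal bins of genes, from the shortest to the longest transcripts, the median log2 fold change was 0.22, 0.10, -0.01, -0.07 and -0.21. The genes called lower were long, with a median of 6195 bases against 3056 over all genes tested, and those called higher were short, with 1871. The share of G and C bases (GC) differed too. Its median was 57.46% in genes called lower, 45.32% in those called higher and 49.76% over all genes tested. The rank correlation of log2 fold change with GC was -0.15. The bin of the longest transcripts held 66 of the lower calls and 4 of the higher. This tilt, the median of the shortest bin minus that of the longest, each relative to the control mean, was -0.29, 0.21 and 0.09 in controls 1 to 3 and 0.40 and 0.47 in eye drop 1 and 2. Once each library's trend with length was removed, 251 of 14844 genes were called, among them 125 of the 179 called genes with a length, and all 179 kept their direction. Notch1 then had a log2 fold change of -0.90 (adjusted p = 0.0278), Col17a1 -0.86, Itgb4 -0.89, Il1f8 1.42 and Gch1 1.51, all past the threshold. Il1f9 (adjusted p = 0.0527), Defb1 (0.0916), Sat1 (0.0696), Serpinb3a (0.0502), Jag1 (0.0501), Ripply3 (0.0575), S100a10 (0.0527, with a log2 fold change of 0.59 in place of 0.94) and Ndufa4 (0.0527, with 0.59 in place of 0.84) were no longer past it. The medians of the WNT and NOTCH list and the interferon list were then -0.45 and 0.59, and that of the antimicrobial list 0.54 in place of 0.83. Those of the ribosomal protein list (1 of 88 called higher) and the respiratory chain list (1 of 75 called higher, Ndufa4, which has near-identical copies, at 0.84) went from 0.41 to 0.15 and from 0.30 to 0.05. The part of RNA quality in these calls was not tested.

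**Figure D4:**
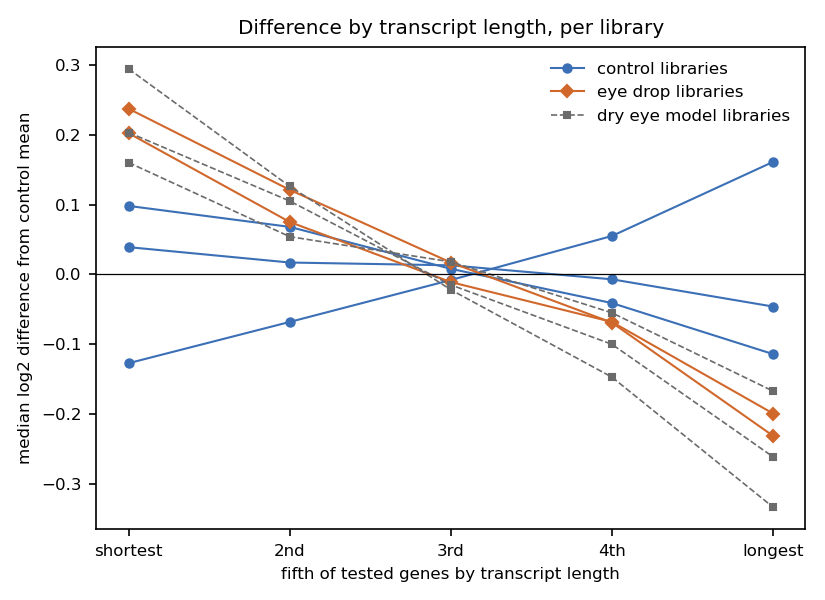
Median log2 difference of each library from the control mean, over 5 equal bins of tested genes from the shortest to the longest transcripts; blue lines are controls, orange lines eye drop and dashed grey lines the DED model. Both eye drop lines fall from 0.20 and 0.24 in the shortest bin to -0.20 and -0.23 in the longest, and the 3 control lines cross.

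To place these differences beside the disease, DED and eye drop corneas were also compared in a fit over 11 libraries. DED against control called 262 of 15443 genes (1.7%), and eye drop against DED called 32 of 15326 (0.209%). Leaving out eye drop 1 or 2 brought the last count to 1 or 2, and leaving out DED 1, 2 or 3 to 14, 19 or 17. These comparisons share libraries, so values are given side by side. The log2 fold change against control was 1.67 with the eye drop and 2.16 in DED for Il1f8, 1.495 and 1.82 for Gch1, and 1.94 and 1.80 for AA467197. For lower genes it was -1.25 and -0.996 for Notch1, -1.07 and -0.89 for Itgb4, and -1.05 and -1.37 for Ngfr. Other called genes lay nearer control in DED. With the eye drop and in DED, Mthfd2 had -1.64 and -0.07 and Nectin1 -1.25 and -0.48. Adh6a had 1.09 and -0.28, and Ccl6 2.30 and 0.46. All these genes are examples, so they do not say how many of the calls were also changed in DED. The length tilt of the DED libraries was 0.33, 0.63 and 0.46, near that of the eye drop libraries, and its part in these values was not tested. Eye drop against DED was not called for any of these genes, which does not show that the levels were alike.

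**Figure D5:**
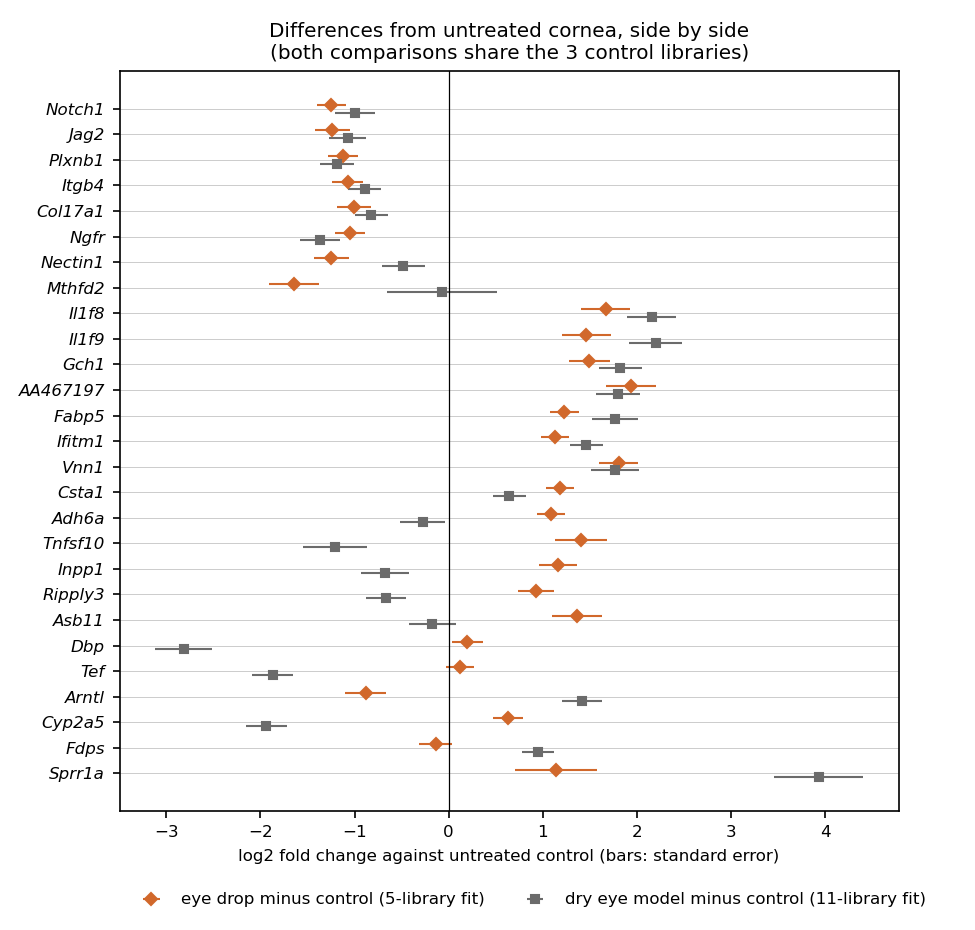
Log2 fold change against untreated control with its standard error, for eye drop corneas (diamonds, fit over 5 libraries) and the DED model (squares, fit over 11 libraries), which share the 3 controls. Notch1 lies at -1.25 and -0.996, Dbp at 0.20 and -2.82, and Tnfsf10 at 1.41 and -1.21.

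Among genes changed in DED, Dbp, Tef, Nr1d2 and Fdps lay near the control level with the eye drop. Per3, Sprr1a and Pigz lay between control and DED. Arntl, Cyp2a5, Alox15, Alox12e and Gbp2 lay past control, on the side away from DED. In the genes of these last groups the eye drop and control libraries did not overlap, but none passed the threshold against control. Of all genes tested, 20.2% did not overlap on the higher side and 21.0% on the lower side. Missing the threshold against control does not show that a level was back at control. Dbp, a transcription factor driven by the circadian clock, had 1496.2, 2043 and 1615.6 normalized counts in the controls and 2002.7 and 1907.9 with the eye drop, which is 0.20 on the log2 scale (SE 0.16) and did not pass (adjusted p = 0.518). In DED it had 111.8, 319.4 and 258.5 on the scale of 11 libraries, against 1304 to 1785.6 in the same controls, and eye drop against DED was 3.02 (SE 0.34, adjusted p = 0.00373). Its relative Tef and the repressor Nr1d2 were at 0.12 (SE 0.15) and -0.11 (SE 0.24) against control, and -1.87 and -1.76 in DED. The eye drop value of Tef turned to -0.048 with library totals, and that of Nr1d2 to 0.10 without control 1. Arntl, the activator of the clock, lay on the other side of control from DED, with 144.9, 155.9 and 131.2 in the controls, 69.6 and 86.5 with the eye drop and a DED value of 1.42. Its eye drop value of -0.88 (SE 0.22, adjusted p = 0.0713) did not pass. The period gene Per3 had -0.54 (adjusted p = 0.153) with the eye drop and -1.77 in DED. In all, 0 of 18 clock genes passed against control, and since collection times are not given, time of day and treatment cannot be told apart. Fdps, of cholesterol synthesis, was at -0.14 (SE 0.18) with the eye drop and 0.95 in DED, and 0 of 24 genes of that list passed against control. Cyp2a5, a cytochrome P450 with close paralogs, had 519.8, 598.1 and 678.7 against 934.4 and 912.6 (0.63, adjusted p = 0.0717), with -1.94 in DED. The lipoxygenases Alox15 and Alox12e were at 0.91 (adjusted p = 0.0626) and 1.04 (adjusted p = 0.0921), against -1.62 and -2.22 in DED. Gbp2, an interferon-induced GTPase, was at 0.42 (adjusted p = 0.153) and -0.84. Sprr1a, 3.93 in DED, and Pigz, a mannosyltransferase of membrane anchor synthesis, 3.76 in DED, were at 1.14 and 1.63 with the eye drop.

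A small set was higher with the eye drop than in both other groups. Tnfsf10 (TRAIL), a ligand that triggers cell death, had 101.4, 60.8 and 58.1 normalized counts in the controls and 214.9 and 168.3 with the eye drop, a rise of 1.41 (SE 0.28, adjusted p = 0.0471). On the scale of 11 libraries it had 41.8, 24.4 and 17.5 in DED, and eye drop against DED was 2.61 (SE 0.38, adjusted p = 0.0104). Inpp1, a phosphatase of inositol phosphates, had 501.0, 474.3 and 505.6 against 1444.2 and 845.1, a rise of 1.16 (SE 0.21), and was 1.83 above DED (adjusted p = 0.0143). Ripply3, a transcriptional corepressor, rose by 0.93 (SE 0.19) from 447.3, 602.5 and 543.2 to 1202.3 and 844.1 and was 1.60 above DED (adjusted p = 0.013). Asb11, a substrate adaptor of ubiquitin ligases, rose by 1.36 (SE 0.26) and was 1.53 above DED (adjusted p = 0.0464). In Tnfsf10, Inpp1, Ripply3 and Asb11 eye drop 1 was the higher of the 2 eye drop libraries. The interferon-stimulated list had a median of 0.64 in eye drop against DED. In DED against control it was -0.05, and -0.49 without control 1.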

How the data were processed

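RNA from mouse cornea was made into libraries with an NEBNext Ultra kit, per the labels' protocols, and the build mm9 is named in the submitters' processing notes. Aligner, counting tool, annotation and strand use: not given in the sources used here. Besides the overlaps named above, Fdps and Pigz overlap another gene on the same strand in GENCODE vM21. Arntl, Dbp, Irf1, Irf7, Itgb4, Klk8, Parp9, Pcnx3, Plxnb1 and Tef overlap a gene on the other strand. The authors deposited log2 values for 28548 symbols. Undoing log2(x + 1) gave whole numbers within 0.01 for 99.9748% of values in 11 columns, so the deposited log2 values are log2(count + 1), and counts were recovered by rounding. The third eye drop column (26.9721% whole; within 5e-09 of the mean of the other 2) was left out, as were 10 lines with values that were not whole and 9 named by a date, together 19 lines holding up to 0.0495% of a library.

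Libraries were scaled by median of ratios. Genes with a count of at least 10 in 2 of the 5 libraries were kept (237 had 10 as their second highest count, and 294 with 9 were left out). Log2(normalized count + 1) entered limma (version 3.58.1, R 4.3.3), two-sided, using a variance trend and robust estimation; residual degrees of freedom were 3 and prior ones 7.47 (median), with Benjamini-Hochberg adjustment over all genes tested. The script was tested on simulated data with the same spread parameter for all genes and no trend with transcript length. That test does not measure how reliable the calls made here are. DED values come from a fit over 11 libraries with 7 residual degrees of freedom. The plan foresaw these log2 values; a count model was not run. Replicates were compared by chi-square and differed beyond counting noise.

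The comparison, gene lists and naming rule were chosen with earlier results of these data known. The rule took the 12 higher and 12 lower genes of smallest p that passed with a fold of at least 2, up to 4 genes per list, 12 preset genes, and up to 8 higher and 8 lower with the largest change; predicted genes were not named, and some genes that the rule names are left out of the text. Of the preset genes, Mmp9 and Muc5ac were below the filter. Of 92 genes in the text, 15 were chosen after their values were seen: Piezo2, Plec, Ly6a, S100a10, Slc6a14, Inpp1, Ripply3, Asb11, Siglecg, Pigz, Tef, Nr1d2, Isg15, Irf7 and Ifit3. Promoters (RefSeq, GRCm38.p6) were chosen after seeing the values, as were length from GENCODE vM21 and the alternatives that remove length or GC trends or leave out intravenous libraries. Alternatives covered scaling, filter, pseudocount, test, spread, block and left-out libraries.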

Additional observations from a re-analysis of the deposited data

How the results depend on the processing

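The count of 182 genes was 417 with library totals, 76 as deposited, 851 of 25842 without a filter, 94 with limma voom, 0 with limma without trend and robust estimation (2619 at an unadjusted p under 0.05), 1 with 11 libraries (1985 at an unadjusted p under 0.05) and 2174 with the third eye drop column, which repeats the others. Among alternatives chosen after seeing the data it was 411 with the GC trend removed, 484 with 11 libraries without intravenous 3, and 261 without the intravenous group. Leaving out 1 library gave 0 (without eye drop 1; 1393 at an unadjusted p under 0.05) to 421 (without control 1); it was 1, Egr1, without control 3, and Egr1 had 916.8, 977.3 and 357.1 normalized counts in controls 1 to 3. DED against control called 262 genes, 675 with only these 2 groups and 44 (without control 1) to 331 with 1 library left out (87, 113 and 72 without control 3, DED 2 and DED 3); eye drop against DED called 32, and 1 to 19. With a control or eye drop library left out, a lone sample or pair is assumed to vary like the rest. The cause was not tested.

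Of 1932 values of 92 genes under the alternatives, 1469 kept direction and side of the threshold, 382 lost and 76 gained a call, and 5 reversed: Tef (-0.048, library totals), Nr1d2 (0.101 without control 1, 0.001 without eye drop 1; leave-one-out range -0.359 to 0.101), Isg15 (-0.137 without control 1, to 1.178) and Ifit3 (-0.016 without control 1, to 1.18). Control 1 and eye drop 1 share a replicate number, as do control 2 and eye drop 2, but the labels say nothing else of pairing; deviations correlated at 0.11 and 0.02. With the replicate block the counts were 443, 204 and 23.

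With 2 eye drop libraries an exact permutation test of 1 value cannot go below 0.1.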
